A study of Mus musculus with 12 samples.

Results

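The interaction of a Regnase-3 knockout with inflammatory stimulation was examined in macrophages cultured from mouse bone marrow. It was defined, for each gene, as the knockout effect after stimulation minus the knockout effect without it, on the log2 scale. All 12 of the 12 RNA sequencing libraries of the series entered, as 4 groups of 3. The genotypes were wildtype (WT) and RankCre-Regnaes3cKO as the labels spell it (cKO), a conditional knockout of Regnase-3, the protein encoded by Zc3h12c, with a Cre named for Rank, the receptor encoded by Tnfrsf11a. Every culture was grown for 7 days in medium conditioned by L929 cells, a source of the growth factor M-CSF. The M0 groups of either genotype received no stimulus, and the M1 groups received lipopolysaccharide (LPS) at 100 ng/ml with interferon-gamma at 10 ng/ml. The duration of stimulation, the deleted part of Zc3h12c and the age of the mice are not stated in the labels, and no group with the Cre alone was analysed here. The labels do not say that the 3 replicates of a group came from separate animals or cultures, so the p-values measure the spread between these libraries, which may be technical. The stated aim of the series was the function of Regnase-3 when Rank-positive macrophages polarize, and the interaction asks which genes respond differently to stimulation in the knockout genotype.

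LPS is sensed by TLR4, whose adaptors activate NF-kB and MAP kinases, while interferon-gamma acts through JAK kinases. Both pathways induce their own inhibitors, among them IkB proteins, IRAK-M, SOCS proteins and dual-specificity phosphatases. Regnase-3 belongs to a family of CCCH zinc finger proteins with an RNase domain, of which Regnase-1 degrades mRNAs of inflammatory genes. The integrated stress response is a further pathway of activated cells, in which the transcription factor ATF4 raises genes of amino acid uptake and synthesis, and CHOP and TRIB3 act downstream of it.

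Library totals lay between 41721452 and 42197986 counts, so sampling depth was nearly equal. The first principal component held 85.1% of the variance and separated M0 from M1. The second held 4.33% and separated the genotypes more widely in M1 (19.9 to 44.9 in WT, -37.6 to -19.6 in cKO) than in M0 (5.89 to 9.58 in WT, -11.9 to 2.13 in cKO). On this axis replicate 11 of WT M1, replicate 9 of cKO M1 and replicate 1 of cKO M0 each lay apart from the other 2 libraries of their group. Macrophage markers were abundant in all 12 libraries, with 103841 to 177511 counts of Adgre1 (F4/80), while Cd3e, which defines T cells, was at 0 in all 12. In bulk RNA, fewer cells of a type and less RNA per cell cannot be told apart.

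Zc3h12c itself is described first. Its level was 17.2, 16.4 and 15.6 CPM in WT M0, 13.6, 18.5 and 14.8 in cKO M0, 176, 192 and 159 in WT M1 and 98.4, 104 and 127 in cKO M1, with replicates in the order 4, 5, 6 for WT M0, 1, 2, 3 for cKO M0, 10, 11, 12 for WT M1 and 7, 8, 9 for cKO M1, an order kept throughout; CPM is a count divided by the library size, which was corrected for composition. The M0 genotypes overlapped, all 6 M1 libraries stood far above the M0 libraries, and the 3 cKO M1 libraries lay below the 3 WT M1 libraries. The log2 fold change of cKO over WT was -0.07 in M0 (adjusted p = 0.809) and -0.68 in M1 (adjusted p = 0.00101). The interaction was -0.61 (SE 0.17, adjusted p = 0.0369) in edgeR's quasi-likelihood test with Benjamini-Hochberg adjustment over all 15110 genes tested. That call passed in 3 of the 12 fits that left out 1 library each, with an adjusted p of up to 0.0999. The 3 fits in which it passed were those without replicate 1 of cKO M0, replicate 12 of WT M1 and replicate 9 of cKO M1. Whole-gene counts cannot tell intact from deleted transcripts. The other family members did not pass, with interactions of 0.14 (adjusted p = 0.591) for Zc3h12a (Regnase-1), -0.02 (adjusted p = 1.00) for Zc3h12b and 0.03 (adjusted p = 0.921) for Zc3h12d. Tnfrsf11a, the gene the Cre is named for, had 0.15 (adjusted p = 0.792).

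Of the 15110 genes tested, 1233 (8.16%) passed the interaction test at an adjusted p under 0.05, of which 608 (4.02%) were higher and 625 (4.14%) lower. A higher interaction means that the ratio of cKO to WT was larger in M1 than in M0, and for 300 genes the change in that ratio was at least 2-fold (115 higher, 185 lower). Scaling by library totals alone moved the split, with 60.5% of its 1315 calls higher against 49.3% here. Cultures without stimulus differed little between genotypes: 244 genes (1.61%) passed in M0 against 2818 (18.6%) in M1. Of these, 75 of the 244 and 1018 of the 2818 also passed the interaction test. The median absolute log2 effect over all genes was 0.17 in M0 and 0.24 in M1. Across genes, which are not independent replicates and here share the scaling of the libraries, the effect in M0 correlated with that in M1 with a Pearson r of 0.166 and a Spearman rho of 0.127; the M0 and M1 effects come from separate libraries.

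Genes that passed were sorted by whether cKO and WT also differed within each state. The effect was gained in M1 (a call in M1, none in M0) for 998 genes (6.60% of those tested), of which 481 were higher and 517 lower in cKO M1. In 723 of the 998 the M0 estimate had the opposite sign, without a call. The interaction subtracts the M0 estimate, so selecting genes by it favours opposite signs, and this count is no evidence of M0 differences. Gained means that no M0 difference was called, not that none existed. The effect was lost in M1 (a call in M0, none in M1) for 55 genes (0.364%), of which 20 were higher and 35 lower in cKO M0. For 19 genes (0.126%) it was reversed, with calls of opposite sign in the 2 states. A single gene, Lox (0.00662%), kept its sign with a smaller effect in M1, and no gene had calls of the same sign with a larger effect. The remaining 160 (1.06%) passed in neither state alone, so no class is given for them.

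The number of calls moved with single libraries. It fell to 789 without replicate 4 and 593 without replicate 6 of WT M0, to 640 without replicate 3 of cKO M0, to 744 without replicate 11 of WT M1 and to 565 without replicate 8 of cKO M1, and the other 7 fits gave 893 to 1576. All 1233 genes kept the sign of their interaction in the 12 fits that left out 1 library, but 489 (39.7%) passed in every one of them. By class these were 453 of the 998 gained, 17 of the 55 lost and 19 of the 19 reversed genes. Genes named below passed in all 12 such fits unless a smaller number is given.

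**Figure D1:**
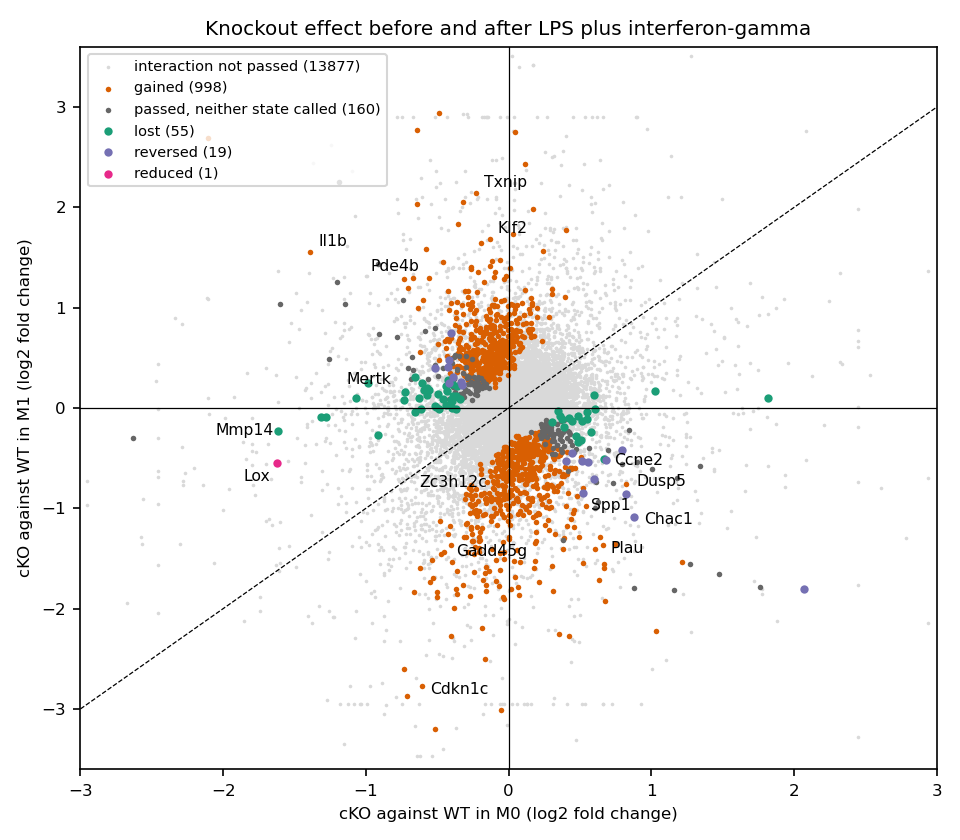
Knockout effect in M0 (horizontal axis) against that in M1 (vertical axis), as log2 fold change of cKO over WT, for each gene tested; 94 genes lie outside the axes and are not drawn. Gained genes spread along the vertical axis, lost genes along the horizontal one, and the 19 reversed genes lie at the upper left and lower right.

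The genes that gained a higher level in cKO M1 and had the smallest interaction p were Klf2, Txnip, Pou2f2, Pde4b, Cited2, Cebpd, Vgll4 and Rassf4. Klf2 (ENSMUSG00000055148), a transcription factor known to restrain macrophage activation, measured 39.9, 45.4 and 42.1 CPM in WT M0, 33.4, 41.9 and 40.9 in cKO M0, 4.71, 4.87 and 6.57 in WT M1 and 17.02, 18.1 and 16.7 in cKO M1. The genotypes overlapped in M0, and in M1 every cKO library was above every WT library. Its log2 fold change of cKO over WT was -0.13 in M0 (adjusted p = 0.556) and 1.68 in M1 (adjusted p = 2.19e-05), and the interaction was 1.82 (SE 0.17, adjusted p = 0.000186). On stimulation Klf2 thus fell by 2.98 on the log2 scale in WT and by 1.16 in cKO.

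Txnip (ENSMUSG00000038393), which binds thioredoxin and limits glucose uptake, was also lowered by stimulation, and measured 313, 298 and 323 CPM in WT M0, 281, 267 and 249.6 in cKO M0, 14.98, 8.27 and 16.8 in WT M1 and 66.95, 69.2 and 40.5 in cKO M1. All 3 cKO M1 libraries were above the 3 WT M1 libraries, while the cKO M0 libraries lay below the WT M0 libraries by an amount that missed the threshold (adjusted p = 0.563). Its effects were -0.23 in M0 and 2.14 in M1, and its interaction was 2.37 (SE 0.29, adjusted p = 0.000815). Further genes lowered by stimulation whose fall was smaller in cKO were Cebpd, a C/EBP transcription factor (interaction 1.65, SE 0.20, adjusted p = 0.000815), Itga4, the alpha chain of the integrin VLA-4 (1.55, adjusted p = 0.00119), and Vgll4, a cofactor of TEAD factors (1.08, adjusted p = 0.000815). Btg2, an antiproliferative gene, changed on stimulation by -1.14 in WT and 0.31 in cKO on the log2 scale (interaction 1.46, adjusted p = 0.00379). The rise in cKO rests on the correction for composition. Its counts at nearly equal totals were 1248, 1469 and 1388 in cKO M0 and 1385, 1157 and 971 in cKO M1. Cited2, a CBP/p300-binding regulator, and Rassf4 had interactions of 0.93 and 0.93. Their M0 effects of -0.30 and -0.34 just missed the threshold (adjusted p = 0.0645 and 0.0521), so these genes lay close to the reversed class.

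Il1b and Nlrp3 were raised by stimulation and gained a higher level in cKO M1. Il1b, the gene of interleukin-1 beta, measured 0.587, 0.1998 and 0.197 CPM in WT M0, 0.174, 0.0785 and 0.118 in cKO M0, 73.9, 61.9 and 71.6 in WT M1 and 233, 211 and 167 in cKO M1. Every M0 library was below 1 CPM, and the cKO M1 libraries lay above the WT M1 libraries. Its effect in M1 was 1.56 (adjusted p = 3.48e-05) and its interaction was 2.95 (SE 0.53, adjusted p = 0.00485), with an M0 effect of -1.39 at those low levels. Nlrp3, the inflammasome sensor that controls interleukin-1 beta maturation, measured 57.9, 58.1 and 66.7 CPM in WT M0, 55.8, 65.3 and 52.002 in cKO M0, 106, 96.4 and 107 in WT M1 and 195, 201 and 199.9 in cKO M1. The M0 libraries overlapped between genotypes and the M1 libraries did not, and the interaction was 1.02 (SE 0.13, adjusted p = 0.000815). Il1rn, the interleukin-1 receptor antagonist, moved the other way, with an effect of -0.59 in M1 (adjusted p = 0.00196) and an interaction of -0.98 (SE 0.16, adjusted p = 0.00288). Nlrp3 was named after its values were seen.

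Pde4b, a phosphodiesterase that degrades cyclic AMP, measured 13.1, 8.39 and 13.1 CPM in WT M0, 7.69, 7.64 and 8.21 in cKO M0, 32.8, 24.1 and 34.4 in WT M1 and 73.998, 84.3 and 66.7 in cKO M1. In M0 its cKO libraries lay below WT and in M1 above, although the M0 difference missed the threshold (adjusted p = 0.102), and the interaction was 1.86 (SE 0.23, adjusted p = 0.000815). Its relative Pde4d had an interaction of -1.60 (adjusted p = 0.0353) in the opposite direction, which passed in 3 of the 12 fits without 1 library. Gpr18, a lipid-binding receptor, and Pou2f2, the transcription factor OCT2, had interactions of 1.91 (adjusted p = 0.00173) and 1.31 (adjusted p = 0.000791). The largest positive interactions at a level of at least 5 CPM in the highest group included Pald1 (2.32), Zfp658 (1.97) and Fam43a (1.84). Pald1 was low in M1, at 34, 2 and 14 counts in WT and 96, 76 and 110 in cKO, so its size is uncertain. Xkr5 was at 383 to 431 counts in WT M0 and 349 to 455 in cKO M0, but at 0, 0 and 0 counts in WT M1 and 2, 4 and 4 counts in cKO M1. For Xkr5 no fold is given, since both M1 groups were at or near the floor of 3 counts per library. Il1f9, an interleukin-1 family cytokine, passed the interaction test upward (adjusted p = 0.0441) and in 4 of the 12 fits without 1 library, but it was at 2, 1 and 2 counts in cKO M0, under the same floor, and at 10, 14 and 9 in WT M0, so its fitted interaction is not given. In M1 it was at 881, 485 and 728 counts in WT and 634, 631 and 506 in cKO, which overlapped.

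**Figure D2:**
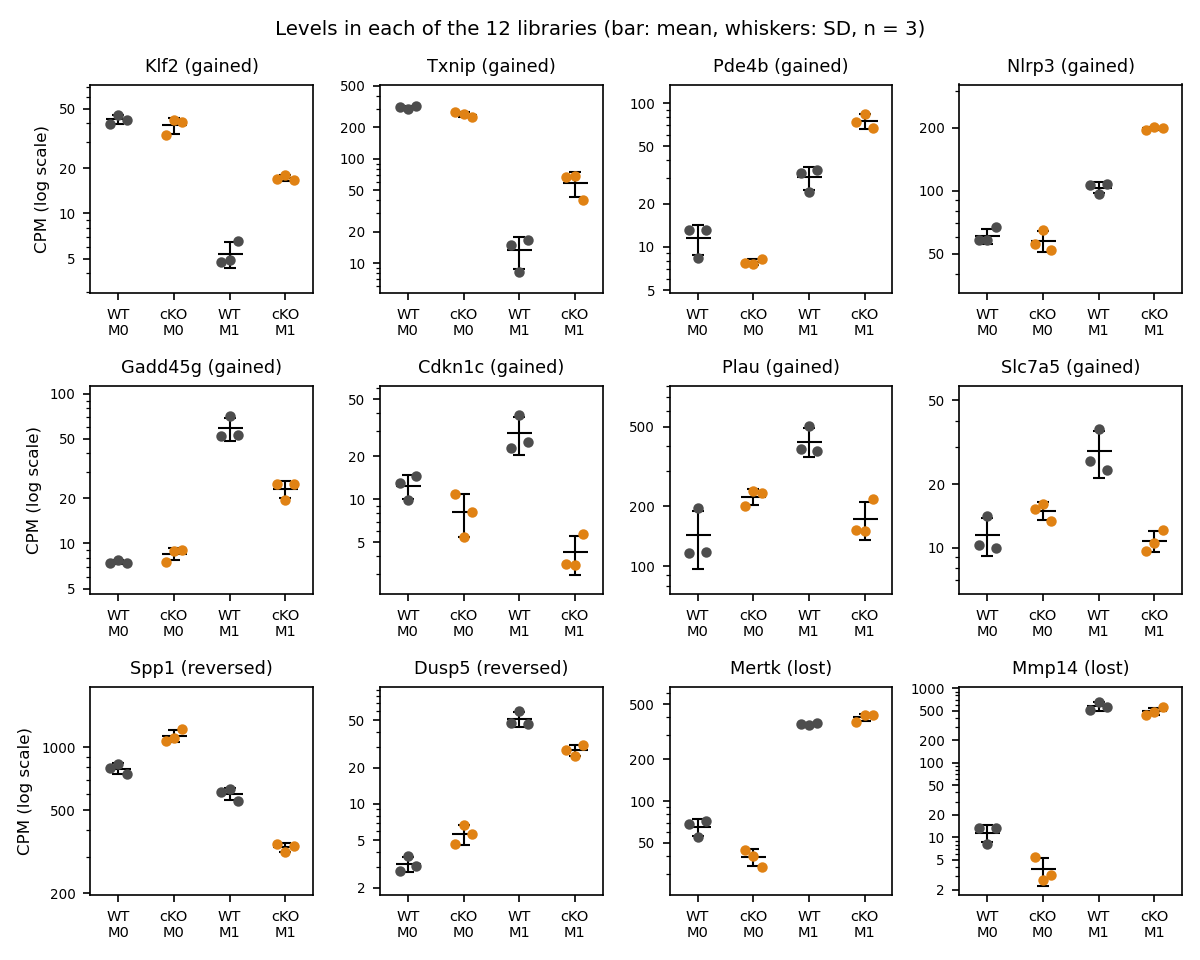
Level in CPM (log axis) of 12 genes in each of the 12 libraries, by genotype and state; points are libraries, the bar is the mean and whiskers the SD over 3 libraries. In the gained genes the genotypes separate in M1, in Spp1 and Dusp5 the order of genotypes turns between the states, and in Mertk and Mmp14 they separate in M0.

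Calls among genes of the NF-kB system were all upward. Of 26 genes of NF-kB subunits and feedback inhibitors, 10 passed the interaction test upward and 0 downward (38.5% against 8.16% of all genes tested), with a median interaction of 0.24 against -0.0039 over all genes. This list and those below were chosen with earlier results of these data known. Their shares beside that of all genes therefore describe the lists and are not a test of them. Among the genes of IkB proteins in the list, Nfkbiz, an atypical IkB induced by TLR signals, had an interaction of 1.32 (SE 0.20, adjusted p = 0.00199), Nfkbie 0.92 (SE 0.15, adjusted p = 0.00286), Bcl3 0.75 (adjusted p = 0.0134) and Nfkbid 0.75 (adjusted p = 0.0210), while Nfkbia (0.30, adjusted p = 0.126) and Nfkbib (-0.12, adjusted p = 0.653) did not pass. Irak3, whose product IRAK-M inhibits TLR signalling, had 0.80 (SE 0.12, adjusted p = 0.00227), and Nfkb1, the p105/p50 subunit, 0.60 (SE 0.11, adjusted p = 0.00495). Per library, Nfkbiz measured 31.2, 28.2 and 35.8 CPM in WT M0, 21.7, 27.5 and 28.9 in cKO M0, 59.6, 42.3 and 64.6 in WT M1 and 114, 119 and 108 in cKO M1. Its cKO M1 libraries lay above all WT M1 libraries, and the M0 libraries overlapped between genotypes.

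Irak3 measured 36.9, 30.5 and 38.99 CPM in WT M0, 33.5, 31.6 and 29.8 in cKO M0, 104, 97.05 and 102 in WT M1 and 153, 162 and 157 in cKO M1. Again the genotypes overlapped in M0 and were apart in M1. The remaining calls were Birc3 (reversed, described further on), Tnfaip2 (lost), N4bp1 (0.57) and Birc2 (0.47). Leaving out 1 library gave 7 to 11 calls in this list, all upward except 1 without replicate 12 of WT M1, and all calls were upward under each other scaling, filter and tool tried. Of the 10, 7 passed in all 12 such fits, while Nfkbid missed only without replicate 3 of cKO M0, N4bp1 passed in 4 of the 12 fits and Birc2 in 1 of the 12 fits. Receptors and adaptors for LPS and interferon-gamma gave 4 of 27 upward and 0 downward (14.8%): Cd14, the LPS co-receptor (0.63, adjusted p = 0.00999), Ikbke (0.62, adjusted p = 0.00943), Myd88 (0.51) and Tirap (0.66). The adaptors Myd88 and Tirap each passed in 3 of the 12 fits, and the list fell to 2 calls without any 1 of replicates 4, 5 or 6 of WT M0, 1 or 3 of cKO M0, 10 or 11 of WT M1 or 8 of cKO M1.

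A letter match to an NF-kB motif (3 Gs, any 2 bases, 2 Ts, any 1 base and 2 Cs), searched on both strands in the 250 bases upstream of the start site, is shown for the single passing gene of the list that holds one. The sequence is from RefSeq (build GRCm38.p6), at chr7:30422156-30422215 on the plus strand, with the match in capitals ending 216 bases before the start site.
Nfkbid: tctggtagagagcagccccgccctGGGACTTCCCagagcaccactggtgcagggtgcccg
The motif was in 1 of the 8 passing genes and in 9 of the 15 other list genes with a promoter in the table. It was in 593 of the 10304 tested genes with a promoter (5.76%) and in 4.11% of all 32851 promoters.

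In the opposite direction, genes of the integrated stress response had lower ratios of cKO to WT in M1 than in M0. Of 28 genes of the integrated stress and unfolded protein responses, 0 passed upward and 11 downward (39.3% against 8.16% of all genes), with a median interaction of -0.41. Within M1, 17 of the 28 were lower in cKO and 0 higher (9.67% of all genes were lower), and within M0 a single one, Chac1, passed, upward. Atf4, the central transcription factor, measured 111, 116 and 106 CPM in WT M0, 118, 125 and 133 in cKO M0, 571, 735 and 570.4 in WT M1 and 403, 386 and 427 in cKO M1. Stimulation raised it in either genotype, by 2.49 in WT and 1.69 in cKO on the log2 scale, and the WT M1 libraries lay above the cKO M1 libraries. The interaction of Atf4 was -0.80 (SE 0.14, adjusted p = 0.00409).

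Downstream factors had larger interactions, with -1.16 (SE 0.18, adjusted p = 0.00199) for Ddit3 (CHOP) and -1.35 (SE 0.20, adjusted p = 0.00198) for Trib3, a pseudokinase induced by ATF4 and CHOP. Ddit3 measured 11.9, 9.07 and 11.9 CPM in WT M0, 13.2, 13.7 and 14.6 in cKO M0, 178, 231 and 162 in WT M1 and 111, 103 and 108 in cKO M1. Its M1 libraries did not overlap between genotypes. Among genes of amino acid supply, Slc7a5, the light chain of the LAT1 transporter, measured 10.3, 14.1 and 9.92 CPM in WT M0, 15.3, 16.2 and 13.3 in cKO M0, 25.6, 36.6 and 23.4 in WT M1 and 9.63, 10.5 and 12.1 in cKO M1. In WT the M1 libraries lay above the M0 libraries, and in cKO the order was the other way: the 3 cKO M1 libraries lay below the 3 cKO M0 libraries. Its interaction was -1.79 (SE 0.24, adjusted p = 0.00102), with effects of 0.38 in M0 (adjusted p = 0.241) and -1.41 in M1 (adjusted p = 0.000100). The partner chain Slc3a2 had -0.66 (adjusted p = 0.00497), Asns (asparagine synthetase) -1.24 (adjusted p = 0.00218) and Phgdh, the first enzyme of serine synthesis, -1.68 (adjusted p = 0.00137).

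Chac1, which degrades glutathione, had -1.97 (SE 0.26, adjusted p = 0.000887) and reversed its effect. Ppp1r15a (GADD34), the phosphatase subunit that ends the response, had -0.89 (adjusted p = 0.0116). The remaining 2 calls were Sesn2 (-0.57), which missed only without replicate 8 of cKO M1, and Dnajb9 (-0.43), an endoplasmic reticulum chaperone that passed in 4 of the 12 fits. Leaving out 1 library gave 9 to 14 calls, and 9 of the 11 passed in all 12 fits. Under the other scalings and tools 11 to 15 passed downward and at most 1 upward. Gdf15, a stress-induced cytokine outside the list and named after its values were seen, changed in the same direction (-1.82, SE 0.32, adjusted p = 0.00477).

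The C/EBP-ATF composite motif TGATGNAA, searched in the same way, was found upstream of 2 of the 10 passing stress response genes with a promoter in the table. Both are shown, and they differ in distance and orientation. The Chac1 window lies at chr2:119351023-119351082 on the plus strand with the motif on the opposite strand, ending 185 bases before the start site. The Asns window lies at chr6:7693210-7693269 on the minus strand with the motif on the gene strand, 15 bases before the start site (RefSeq, GRCm38.p6; capitals mark the match).
Chac1: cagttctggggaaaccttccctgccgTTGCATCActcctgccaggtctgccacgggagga
Asns: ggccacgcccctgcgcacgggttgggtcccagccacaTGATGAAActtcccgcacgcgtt
The motif was also upstream of 4 of the 16 list genes that did not pass, Atf3, Herpud1, Nupr1 and Slc7a11, of 263 of the 10304 tested genes (2.55%) and of 3.45% of all 32851 promoters.

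**Figure D3:**
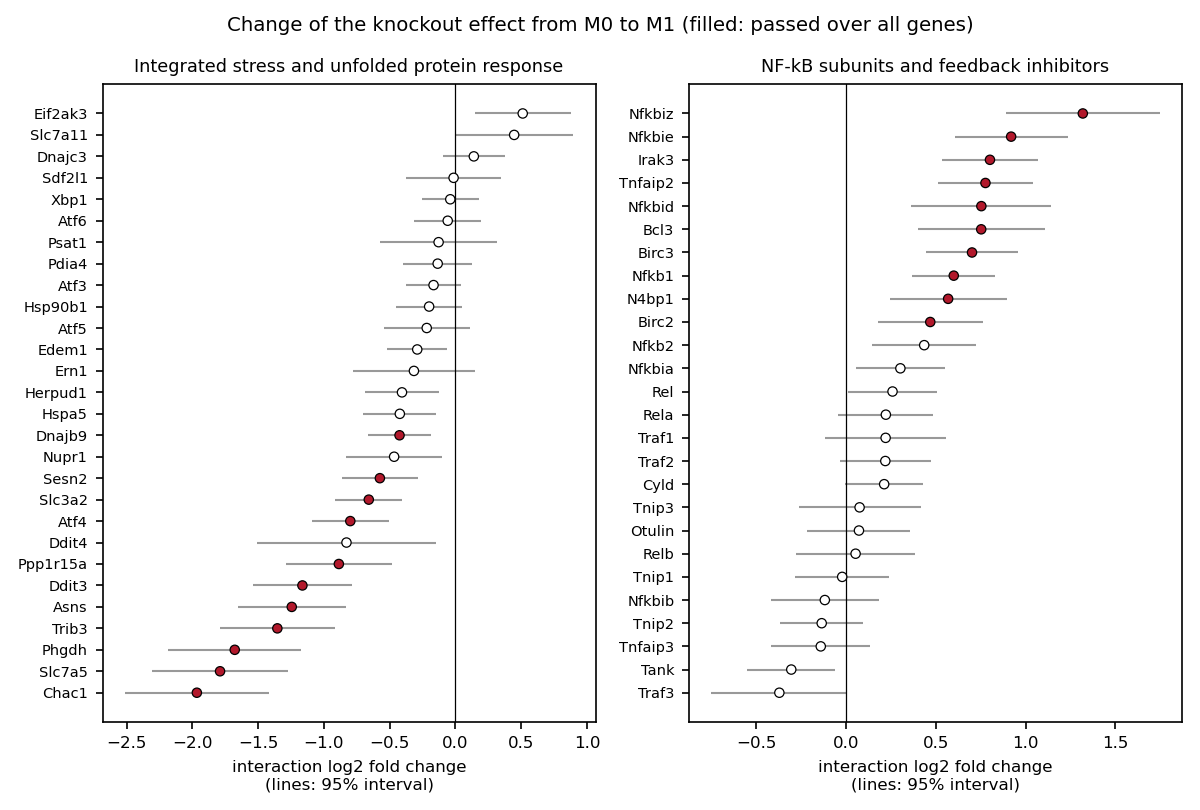
Interaction log2 fold change (horizontal axis, points, with lines for 95% intervals) of each tested member of the stress response list (left, 28 genes) and the NF-kB list (right, 26 genes); filled points passed the test over all genes. The 11 filled points on the left are below 0 and the 10 on the right above 0.

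Growth arrest genes passed in both directions. Of 21 cell cycle inhibitors and growth arrest genes, 3 passed upward and 6 downward (42.9% in all, against 8.16% of all genes). All 3 Gadd45 genes, which are induced by stress, passed downward: Gadd45g (-1.53, SE 0.18, adjusted p = 0.000815), Gadd45b (-1.09, adjusted p = 0.00707) and Gadd45a (-1.33, adjusted p = 0.0235), the last in 8 of the 12 fits without 1 library. Gadd45g measured 7.35, 7.73 and 7.401 CPM in WT M0, 7.58, 8.93 and 9.04 in cKO M0, 52.5, 71.02 and 53.3 in WT M1 and 24.8, 19.6 and 24.98 in cKO M1. Stimulation raised it in all libraries, and the cKO M1 libraries stayed below all WT M1 libraries.

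Cdkn1c (p57), a cyclin-dependent kinase inhibitor, measured 12.9, 9.91 and 14.5 CPM in WT M0, 10.9, 5.44 and 8.195 in cKO M0, 22.96, 39.04 and 25.2 in WT M1 and 3.55, 3.49 and 5.74 in cKO M1. The WT M1 libraries were the highest and 2 of the 3 cKO M1 libraries the lowest of all 12, with an interaction of -2.16 (SE 0.37, adjusted p = 0.00395). Mdm2, the ubiquitin ligase of p53, had -0.82 (adjusted p = 0.00329). Upward were Btg2, Sesn1 (0.81, adjusted p = 0.00425) and Cdkn1b (p27; 0.56, adjusted p = 0.0167), the last missing without replicate 6 of WT M0 or replicate 3 of cKO M0. Leaving out 1 library gave 7 to 9 calls in this list.

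Calls among proliferation genes were all downward. Of 42 cell cycle and DNA replication genes, 0 passed upward and 7 downward (16.7%, against 8.16% of all genes; median interaction -0.29). Among them were Ccnb1 (cyclin B1; -1.13, adjusted p = 0.00467), Mki67 (-1.18, adjusted p = 0.0123), Bub1b (-0.46, adjusted p = 0.0487), Ccne1, Ccne2 and Pcna. In M0, 6 of the 42 were higher in cKO and 0 lower, against 0.662% of all genes that were higher. In M1, 3 of the 42 were higher in cKO and 6 lower, against 8.98% and 9.67% of all genes. The median knockout effect of the list was 0.29 in M0 and 0.011 in M1. Without replicate 5 of WT M0 the count rose to 13, DESeq2 called 12 downward and 1 upward, edgeR without the filter on low counts 16 downward and 2 upward, and Bub1b passed in 3 of the 12 fits. Outside the list, Cenpa, the centromeric histone, and Spdl1, a kinetochore protein, had -1.40 (SE 0.18, adjusted p = 0.000815) and -1.50 (SE 0.16, adjusted p = 0.000480).

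Other genes that gained a lower level in cKO M1 were of varied function. Plau, the urokinase plasminogen activator, measured 116, 196 and 117 CPM in WT M0, 199.6, 238 and 232 in cKO M0, 384, 502 and 376 in WT M1 and 152, 150.2 and 216 in cKO M1. Its cKO libraries were above WT in M0, where the difference missed the threshold (adjusted p = 0.0985), and below WT in M1, with an interaction of -1.93 (SE 0.27, adjusted p = 0.00129). Hbegf, an EGF receptor ligand, had -2.26 (SE 0.46, adjusted p = 0.00910), and Gem, a small GTPase, -2.22 (SE 0.45, adjusted p = 0.00937). Among the smallest p-values were also Pcp4l1 (-1.56), Fam198b (-1.32), Rassf8 (-1.39), Ifrd1 (-1.54) and Prdx6, a peroxiredoxin (-0.86). The largest negative interactions included Arl4d (-1.94), Cd207, the lectin langerin (-2.34), Cd300ld3 (-2.03) and Gmpr (-1.95). In M1 Cd207 was at 14, 14 and 23 counts in WT and 6, 6 and 4 in cKO. Gmpr was at 16, 15 and 40 counts in WT M1 and 4, 12 and 6 in cKO M1, so both sizes are uncertain. The call of Gmpr was lost without replicate 6 of WT M0, replicate 12 of WT M1 or replicate 7 of cKO M1. Cd300ld3 has close relatives whose reads the counting may have shared with it.

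Markers of other cell types moved with a few of these calls. Ighm, the immunoglobulin M heavy chain, was counted 2914, 2316 and 2844 times in WT M0, 2493, 1573 and 1628 in cKO M0, 45, 73 and 96 in WT M1 and 2, 14 and 8 in cKO M1, and its interaction was -2.68 (SE 0.51, adjusted p = 0.00597). The M1 genotypes did not overlap. Of 14 B and plasma cell markers, 4 passed the count filter and 1, Ighm, passed the test; without that filter 3 of 13 passed, downward. Their summed level was 53.96 to 70.7 CPM in WT M0, 33.2 to 62.6 in cKO M0, 3.27 to 5.29 in WT M1 and 0.682 to 0.877 in cKO M1. Igkc, the kappa light chain, was at 318, 4 and 0 counts in cKO M0 and at 0 in all 3 cKO M1 libraries, against 171 to 386 in WT M0 and 31 to 60 in WT M1. The part of B-lineage RNA in the Ighm result was not tested.

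Kdr, the VEGF receptor VEGFR2, was the single call among 5 tested of 15 stromal and endothelial markers (-1.41, SE 0.25, adjusted p = 0.00485), with 10076 to 12316 counts in WT M1 and 3636 to 5117 in cKO M1. The summed markers were at 26.4 to 32.4 CPM in WT M0, 20.5 to 31.2 in cKO M0, 316 to 391 in WT M1 and 121 to 163 in cKO M1, a range that Kdr makes up for the most part. DESeq2 called 2 of the 5 downward, and without the filter on low counts edgeR called 4 of 14 upward and 2 downward. Cdh5, which defines endothelial cells, was at 14 to 63 counts, and Col1a1 at 0 to 2 counts except 88 in replicate 4 of WT M0. Gp1ba, a platelet receptor chain, was the call among 8 tested of 10 megakaryocyte and platelet markers (-2.61, adjusted p = 0.0179), and was lost without replicate 6 of WT M0 or replicate 8 of cKO M1. All 8 had a negative interaction (median -0.66), and 4 of them were lower in cKO M1 (9.67% of all genes were). DESeq2 called 3 downward and edgeR without the filter on low counts 4 of 10. Those markers summed to 169 to 189 CPM in WT M0, 146 to 188 in cKO M0, 130.4 to 155 in WT M1 and 97.01 to 107 in cKO M1. Their part in the other results was not tested. Leaving out replicate 3 of cKO M0 or replicate 7 of cKO M1 gave 2 calls in that list. No neutrophil (7 tested), T and NK cell (5), erythroid (2), mast cell, basophil and eosinophil (3) or dendritic cell marker (10) passed edgeR's test. At an unadjusted p under 0.05 there were 2, 0, 0, 1 and 1, in that order, against 3606 of all 15110 genes. DESeq2 called 1 neutrophil marker upward and 1 mast cell, basophil and eosinophil marker downward, and limma-voom 1 neutrophil marker upward. Without the filter on low counts 2 of 15 neutrophil markers passed upward, and 1 of 9 mast cell, basophil and eosinophil and 2 of 13 dendritic cell markers downward.

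For 19 genes the knockout effect passed in each state with opposite signs, 11 higher in cKO M0 and lower in cKO M1, and 8 the other way. Spp1, the secreted matrix protein osteopontin, measured 792, 835 and 744 CPM in WT M0, 1072, 1109 and 1219 in cKO M0, 609, 634 and 552 in WT M1 and 344, 315 and 337 in cKO M1. The genotypes did not overlap in either state, with cKO higher in M0 and lower in M1. The effects were 0.52 in M0 (adjusted p = 0.0105) and -0.85 in M1 (adjusted p = 3.14e-05), and the interaction of -1.37 (SE 0.12, adjusted p = 7.45e-05) had the smallest adjusted p of all genes tested. Dusp5, a phosphatase of ERK, measured 2.78, 3.696 and 3.01 CPM in WT M0, 4.59, 6.63 and 5.56 in cKO M0, 47.3, 59.8 and 46.5 in WT M1 and 28.2, 25.4 and 31.3 in cKO M1. Its effects were 0.82 in M0 (adjusted p = 0.0278) and -0.86 in M1 (adjusted p = 0.000646), with an interaction of -1.68 (SE 0.21, adjusted p = 0.000815). Of 14 MAP kinase phosphatases and feedback genes, 2 passed upward and 3 downward (35.7%, against 8.16% of all genes). Dusp6 had 1.38 (adjusted p = 0.0109) and Dusp16 0.64 (adjusted p = 0.0341), the latter in 6 of the 12 fits without 1 library. Besides Dusp5, Dusp4 (-1.42, adjusted p = 0.00211) and Dusp8 (-1.73, adjusted p = 0.0129) passed downward.

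Chac1 measured 0.645, 0.859 and 0.709 CPM in WT M0, 1.18, 1.47 and 1.42 in cKO M0, 9.89, 9.11 and 10.6 in WT M1 and 4.15, 4.03 and 5.72 in cKO M1. Rgs1 and Rgs2, regulators of G protein signalling, had effects of 0.79 in M0 and -0.42 in M1 and of 0.44 in M0 and -0.45 in M1. Ccl9, a chemokine of the macrophage lineage, had 0.51 in M0 and -0.52 in M1. Ccl9 was the only 1 of 23 chemokines to pass in edgeR (interaction -1.04, SE 0.16, adjusted p = 0.00198). The proliferation genes Ccne1 (cyclin E1) and Hmgn2, and Odc1, the first enzyme of polyamine synthesis, had interactions of -1.10, -0.93 and -1.20. The RIKEN clone gene 2210418O10Rik was low, at 9 to 62 counts in M0 and 2 to 24 in M1, and its M1 libraries overlapped between genotypes.

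Among the 8 genes lower in cKO M0 and higher in cKO M1, Rarg, a retinoic acid receptor, measured 18.5, 16.7 and 19.1 CPM in WT M0, 13.5, 13.7 and 13.8 in cKO M0, 8.28, 7.87 and 8.03 in WT M1 and 13.04, 13.4 and 14.1 in cKO M1. In WT its level fell on stimulation, and in cKO the M0 and M1 libraries spanned similar levels after correction for composition. The likeness within cKO rests on that scaling, since its counts at nearly equal totals were 696, 697 and 701 in cKO M0 and 459, 472 and 498 in cKO M1. Its effects were -0.41 in M0 (adjusted p = 0.0423) and 0.74 in M1 (adjusted p = 0.000110), with an interaction of 1.15 (SE 0.13, adjusted p = 0.000635). Mefv (pyrin) and Nod1, innate sensors, had effects of -0.43 in M0 and 0.41 in M1 and of -0.42 in M0 and 0.25 in M1, and Birc3 (cIAP2), a ubiquitin ligase of the NF-kB pathway, -0.39 in M0 and 0.31 in M1. Galc, a lysosomal galactosidase, Ahrr, the repressor of the aryl hydrocarbon receptor, Arrdc2, and Vsir, the checkpoint receptor VISTA, had interactions of 0.90, 0.59, 0.91 and 0.56. The interaction of all 19 passed in each of the 12 fits without 1 library, but their M0 call did not: its adjusted p was 0.0103 to 0.0478, and it passed in 3 to 9 of those fits. No gene was in the reversed class without replicate 4 or 6 of WT M0 or replicate 3 of cKO M0, and 39 were without replicate 5 of WT M0. The count was 4 without replicate 2 of cKO M0, 3 without replicate 10 and 8 without replicate 12 of WT M1, and 30 without replicate 7 and 3 without replicate 8 of cKO M1.

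**Figure D4:**
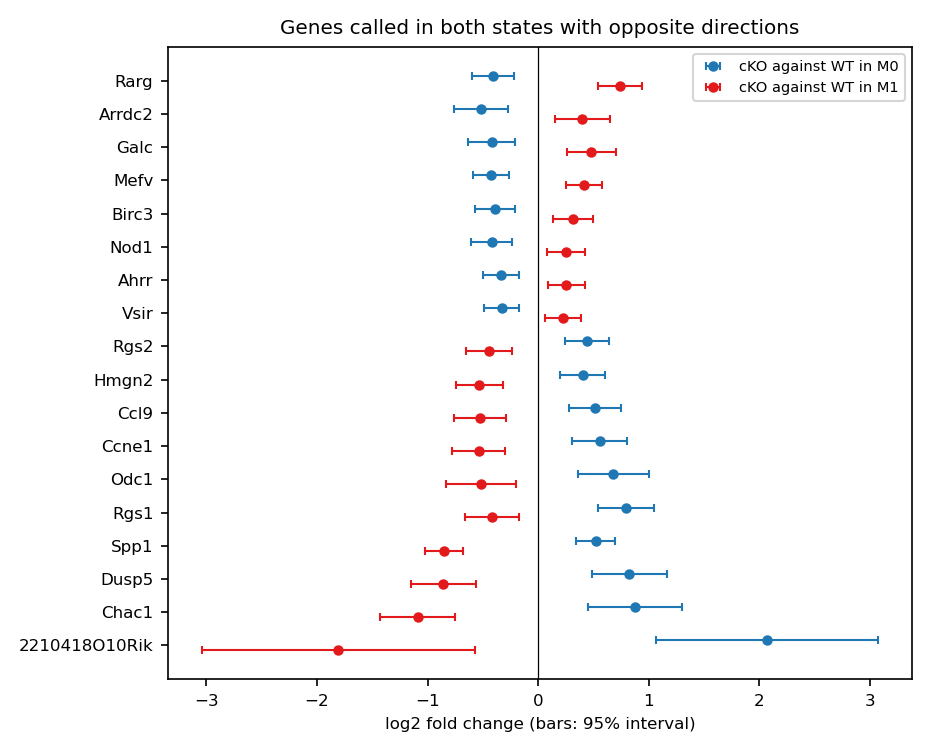
Knockout effect (log2 fold change of cKO over WT) in M0 and M1 for 18 of the 19 genes with calls of opposite sign, with error bars of 95% intervals. In 10 genes the M0 point is above 0 and the M1 point below, and in 8 the order is the other way.

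Effects present in M0 and not detected in M1 were fewer. Of the 55 lost genes, the 8 with the smallest interaction p included Mertk, a receptor for uptake of dying cells, which measured 67.8, 55.1 and 72.2 CPM in WT M0, 44.4, 40.02 and 33.6 in cKO M0, 361, 355 and 363 in WT M1 and 373, 414 and 418 in cKO M1. In M0 cKO was lower than WT without overlap. Stimulation raised it more in cKO, and in M1 its cKO libraries were slightly above WT. The effects were -0.72 in M0 (adjusted p = 0.0103) and 0.16 in M1 (adjusted p = 0.328), and the interaction was 0.88 (SE 0.15, adjusted p = 0.00425). Mmp14, a membrane-bound collagenase, measured 13.2, 8.13 and 13.4 CPM in WT M0, 5.52, 2.71 and 3.11 in cKO M0, 502, 657 and 564 in WT M1 and 442, 475 and 555 in cKO M1, with effects of -1.62 in M0 (adjusted p = 0.00980) and -0.23 in M1 (adjusted p = 0.460) and an interaction of 1.39 (SE 0.30, adjusted p = 0.0131). Its M0 libraries were low and apart between genotypes, while its M1 libraries overlapped.

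Tnfaip2 (0.78), Prdm1 (BLIMP1, a transcriptional repressor; 0.86), Cmklr1 (the chemerin receptor; 0.73), Ms4a4a (1.24), Fbxl20 (0.73) and Sft2d2 (0.64) followed the same course, lower in cKO M0 with no call in M1. Ccne2 (cyclin E2) and Pcna (the DNA polymerase clamp) were higher in cKO M0, with interactions of -1.17 (adjusted p = 0.00497) and -0.64 (adjusted p = 0.00957). The estimates in M1 are not shown to be 0: the M1 effect of Ccne2 was -0.50 in M1 (adjusted p = 0.0640) and that of Sft2d2 0.24 in M1 (adjusted p = 0.0575). Lox (lysyl oxidase), the gene whose effect shrank, had -1.63 in M0 (adjusted p = 0.00497) and -0.54 in M1 (adjusted p = 0.0373), and its interaction of 1.08 (SE 0.27, adjusted p = 0.0238) passed in 7 of the 12 fits. The number of lost genes was 4 without replicate 4 and 0 without replicate 6 of WT M0, 10 without replicate 2 and 0 without replicate 3 of cKO M0. It was 16 without replicate 10 and 30 without replicate 12 of WT M1 and 13 without replicate 8 of cKO M1, and it rose to 105 without replicate 5 of WT M0 and 106 without replicate 7 of cKO M1.

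Many knockout effects were not shown to depend on stimulation. Of 90 genes called in both M0 and M1, 71 had the same sign, and 70 of these did not pass the interaction test. Ciita, the master regulator of MHC class II genes, is an example, with effects of -1.12 in M0 (adjusted p = 0.00497) and -0.63 in M1 (adjusted p = 0.00787) and an interaction of 0.49 (95% interval 0.05 to 0.93, adjusted p = 0.159). Of 15 MHC class II presentation genes, 7 were lower in cKO M0 (0.953% of all genes were) and 4 in cKO M1 (9.67% of all genes), and 2 passed the interaction upward and 1 downward (20%, against 8.16% of all genes). These were Cd74, the invariant chain (0.65, adjusted p = 0.0266), H2-DMa, a peptide loading chain (0.61, adjusted p = 0.0241), and Ifi30, a lysosomal thiol reductase (-0.40, adjusted p = 0.0168). None of the 3 passed in all 12 fits: Cd74 passed in 4 of the 12 fits, H2-DMa in 6 of the 12 fits and Ifi30 in 10 of the 12 fits. The list gave 6 calls without replicate 5 of WT M0, 0 without replicate 6 of WT M0 or replicate 3 of cKO M0, and 1 without replicate 4 of WT M0, 10 or 11 of WT M1 or 8 of cKO M1. H2-Ab1, a class II beta chain, had an interaction of 0.62 (95% interval 0.16 to 1.07, adjusted p = 0.0864). Ciita and H2-Ab1 were named after their values were seen.

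Interferon target genes and MHC class I genes gave 0 or 1 calls a list, but for the interferon targets the count rose without the filter on low counts and without single libraries. Of 33 type I interferon-stimulated genes, 31 rose on stimulation in WT (34.2% of all genes did), while 0 passed the interaction test in edgeR, 0 in DESeq2 and 0 in limma-voom, with 3 at an unadjusted p under 0.05 in edgeR. Over all 15110 genes, 3606 had an unadjusted p under 0.05 in that test. Of the 33, 28 had a negative interaction (median -0.19). Without the filter on low counts, where edgeR made 1972 calls in all, 10 of the 33 passed downward and 1 upward. With the filter 7 passed downward without replicate 1 of cKO M0, the library that stood apart in its group, and 1 without replicate 7 of cKO M1. The smallest p was that of Isg20, with -0.77 (95% interval -1.40 to -0.15, adjusted p = 0.118). Of 22 MHC class I and peptide loading genes, all 22 rose in WT and 0 passed the interaction in edgeR and limma-voom and 1, downward, in DESeq2, with 3 at an unadjusted p under 0.05. H2-Q6, a class I gene with near-identical copies whose counts are uncertain, had -0.94 (95% interval -1.64 to -0.24). Of 32 interferon-gamma response genes, 31 rose in WT and 1, the transcription factor Batf2 (0.83, SE 0.17, adjusted p = 0.00968), passed (3.12%). Without the filter on low counts 5 passed upward and 3 downward. With it, this list gave 3 calls, 2 of them downward, without replicate 1 of cKO M0, and 2 without any 1 of replicates 5 or 6 of WT M0, 10 or 12 of WT M1 or 7 or 9 of cKO M1. Of 23 STAT, IRF and SOCS genes, 3 passed upward (13.0%, against 8.16% of all genes): Socs3, the feedback inhibitor of JAK signalling (0.67, adjusted p = 0.00591), Irf3 (0.59, adjusted p = 0.0277) and Irf2 (0.53, adjusted p = 0.0387). Irf3 and Irf2 passed in 7 of the 12 fits and 4 of the 12 fits, and Socs3 alone remained without replicate 4 or 6 of WT M0 or replicate 8 of cKO M1.

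Among cytokines and chemokines the share of calls was near or below the 8.16% of all genes in edgeR and rose without the filter on low counts. Of 29 proinflammatory mediators, 28 rose on stimulation in WT (34.2% of all genes did). In M1, 9 were higher in cKO (8.98% of all genes were) and 4 lower (9.67% of all genes). Of the 29, 2 passed the interaction (6.90%), Il1b upward and Il1rn downward, against 2 each way in DESeq2 and 3 upward and 5 downward without the filter. Among the 23 chemokines, 1 passed downward in edgeR (4.35%) and in limma-voom and 6 in DESeq2, and without the filter 9 of 24 passed downward and 1 upward. With the filter edgeR gave 2 without any 1 of replicates 4 or 5 of WT M0 or 1, 2 or 3 of cKO M0 and 5 without replicate 7 of cKO M1. Immediate early and AP-1 genes gave 6 of 27 upward and 2 downward (29.6%, against 8.16% of all genes). Upward were Btg2, Ier2 (1.32, adjusted p = 0.00937), Batf2, Fosl2 (0.94, adjusted p = 0.0163), Ier3 (0.55) and Junb (0.55). Downward were Klf4 and Myc (-1.14, adjusted p = 0.0195). Ier3 missed without replicate 4 of WT M0, Myc without replicate 6 of WT M0, 3 of cKO M0 or 11 of WT M1, and Junb passed in 4 of the 12 fits. KLF transcription factors gave 2 of 10 upward (Klf2, and Klf7 with 0.64, in 2 of the 12 fits) and 4 downward (60%). These 4 were Klf9 (-1.87, SE 0.32, adjusted p = 0.00401), Klf10 (-0.79, adjusted p = 0.0111), Klf4 (-0.73, adjusted p = 0.00985) and Klf11 (-0.90, in 3 of the 12 fits).

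**Figure D5:**
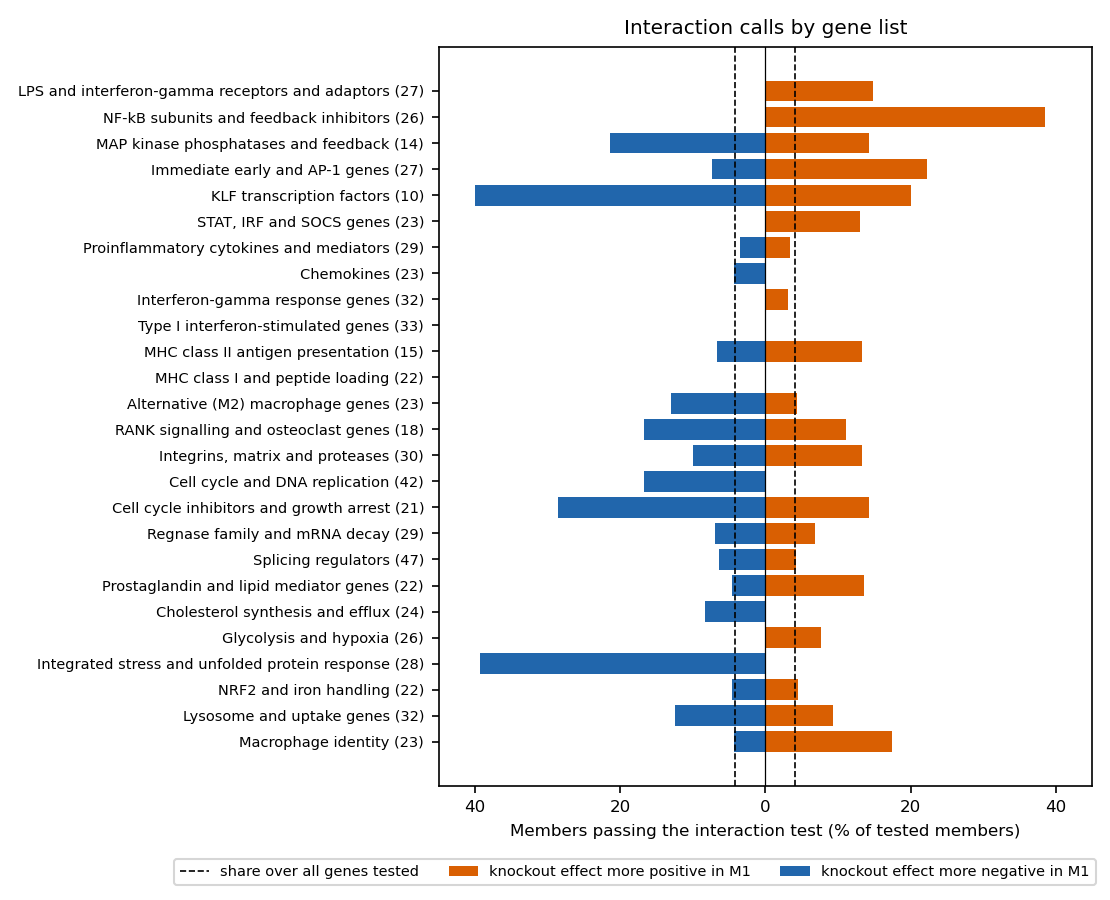
Percent of the tested members of each pathway list that passed the interaction test, upward to the right and downward to the left, with dashed lines at the percent over all 15110 genes (4.02% upward, 4.14% downward); the number of tested members is in brackets. The NF-kB list lies to the right, the stress response and cell cycle lists to the left, and the type I interferon and MHC class I lists have no bar.

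Genes of matrix, lysosome and macrophage identity passed in both directions, and the shares in brackets stand against 8.16% of all genes; the number after a value gives the fits without 1 library in which it passed. Integrins, matrix and proteases gave 4 of 30 upward (Itga4, Mmp14, Adam17 with 0.42, 7 of 12, and Mmp9, a gelatinase, with 1.17, 4 of 12) and 3 downward (Plau, Itgb3 with -1.38, 10 of 12, and Timp1 with -1.05, 4 of 12), or 23.3%. The count was 4 without replicate 4 or 6 of WT M0 or 11 of WT M1 and 3 without replicate 8 of cKO M1. Among 18 RANK signalling and osteoclast genes, Mmp14 and Mmp9 passed upward and Spp1, Itgb3 and Atp6v0d2 (-1.17, 3 of 12) downward (27.8%). It gave 3 calls without replicate 4 or 6 of WT M0 or 1 or 3 of cKO M0 and 2 without replicate 11 of WT M1 or 8 of cKO M1. Of 32 lysosome and uptake genes, Mertk, Ctsc (0.54, 7 of 12) and Tfe3 (0.39, 4 of 12) passed upward, and Axl, a relative of Mertk (-0.86, SE 0.14, adjusted p = 0.00286), Lipa, the lysosomal acid lipase (-0.52, adjusted p = 0.0119), Gla (-0.41, 3 of 12) and Ctsl (-0.51, 6 of 12) downward (21.9%). Axl measured 171, 198 and 189 CPM in WT M0, 144, 164 and 149.6 in cKO M0, 273, 313 and 287 in WT M1 and 119, 126 and 151 in cKO M1. The cKO libraries of Axl were below WT in both states, but the M0 difference missed the threshold (adjusted p = 0.136).

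That list fell to 4 calls without replicate 4 of WT M0 or 11 of WT M1 and to 3 without replicate 6 of WT M0, 3 of cKO M0 or 8 of cKO M1. Of 23 macrophage identity genes, Cebpd, Cd14, Maf, a macrophage transcription factor (0.91, adjusted p = 0.0136), and Csf1r, the M-CSF receptor (0.49, adjusted p = 0.0206), passed upward and Cd68 (-0.41, adjusted p = 0.0215) downward (21.7%, against 8.16% of all genes). Csf1r and Cd68 were lost without replicate 3 of cKO M0 or replicate 8 of cKO M1, Csf1r also without replicate 6 and Cd68 also without replicate 4 of WT M0. The summed level of these 23 genes was 21685 to 27180.2 CPM in WT M0, 22709 to 24196 in cKO M0, 27988 to 30595 in WT M1 and 28046 to 31891 in cKO M1, so the groups of each state overlapped between genotypes. Of 23 genes of alternative activation, Il4ra (0.65, 7 of 12) passed upward and Pdgfa (-1.71, adjusted p = 0.00485), Klf4 and Mrc1 (-0.82, 4 of 12), the mannose receptor, downward (17.4%). The count was 2 without replicate 4 or 6 of WT M0, 1 of cKO M0 or 8 of cKO M1.

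RNA regulators passed in both directions, with shares to be set against 8.16% of all genes. Of 29 genes of the Regnase family and mRNA decay, Zfp36l1, which destabilizes AU-rich mRNAs (0.81, SE 0.14, adjusted p = 0.00336), and N4bp1 passed upward, and the relative of Zfp36l1, Zfp36l2 (-0.99, adjusted p = 0.0183), and Zc3h12c downward (13.8%). Zfp36l2 missed without replicate 8 of cKO M1, which left 1 call. There were 2 without replicate 4 or 6 of WT M0, 3 of cKO M0 or 11 of WT M1, and 7 without replicate 12 of WT M1. Of 47 splicing regulators, Srsf5 (0.49, 10 of 12) and Srsf9 (0.52, 2 of 12) passed upward and Srsf2 (-0.95, adjusted p = 0.00533), Clk4, a kinase of SR proteins (-1.02, adjusted p = 0.00533), and Hnrnpa1 (-0.54, 5 of 12) downward (10.6%). Between 2 and 3 passed without any 1 of replicates 4 or 6 of WT M0, 1 or 3 of cKO M0, 10 or 11 of WT M1 or 8 of cKO M1, and 8 without replicate 12 of WT M1. Of 22 genes of prostaglandins, lipid mediators and Pde4 phosphodiesterases, Pde4b, Pla2g7 (0.49, 4 of 12) and Ptger4 (0.52, 3 of 12) passed upward and Pde4d downward (18.2%). Pde4b and Pde4d degrade cyclic AMP, so this share is not one of lipid mediator genes alone. Pde4b alone remained without replicate 4 or 6 of WT M0, 3 of cKO M0, 11 of WT M1 or 8 of cKO M1, and 2 passed without replicate 9 of cKO M1.

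Metabolic lists gave calls at about the 8.16% found over all genes. Of 24 cholesterol genes, Insig1 (-0.81, adjusted p = 0.0178) and Mylip (-0.79, adjusted p = 0.0185), which limit synthesis and the LDL receptor, passed downward (8.33%), both lost without replicate 8 of cKO M1. Among 26 glycolysis and hypoxia genes, Txnip and Hk1 (hexokinase 1; 0.56, adjusted p = 0.0199) passed upward (7.69%). Hk1 was lost without replicate 3 of cKO M0 or 8 of cKO M1, and 4 passed without replicate 12 of WT M1. Of 22 NRF2 and iron genes, Cp, the ferroxidase ceruloplasmin (1.19, adjusted p = 0.0357), passed upward and Srxn1 (-0.35, adjusted p = 0.0371) downward (9.09%). Each passed in 4 of the 12 fits, and none did without replicate 4 or 6 of WT M0, 1 or 3 of cKO M0, 10 or 11 of WT M1 or 8 of cKO M1.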

How the data were processed

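RNA sequencing of 12 cultures gave 1 deposited table of raw counts per gene with a gene length, which was not used. Per the submitters' processing notes, reads went through featureCounts 2.0.3, SAMtools 1.16.1, HISAT2 2.2.1 and Trimmomatic 0.39, named without order, with the build GRCm39. The strand setting, the annotation release and the handling of multi-mapping reads are not given in these sources, so overlapping or near-identical genes are uncertain. The deposited counts were used as they stand. Of values from 1 to 10, 60.9% were even, where about 50% is usual, and halved counts were tried as an alternative. Of 56980 gene IDs, 4907 matched no symbol (0.156% to 0.243% of counts) and stayed in the tests. Replicate libraries all differed by more than sampling noise.

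Genes were kept by filterByExpr in edgeR 4.0.16 in R 4.3.3 (minimum count 10, minimum total 15), which left 15110. TMM factors averaged 1.21 in WT M0, 1.22 in cKO M0, 0.808 in WT M1 and 0.840 in cKO M1. They differed more between states than between genotypes, so the change of a gene on stimulation within a genotype depends on this scaling. All 12 libraries entered 1 model of 4 group means (common biological coefficient of variation 0.111). The quasi-likelihood F-test was applied to cKO against WT in M0, in M1, and to their difference, and to M1 against M0 in each genotype, with Benjamini-Hochberg adjustment over all genes. Standard errors came from the fold change and F statistic, and intervals are 95% intervals. The fit was tested on simulated data, in which 100 genes had an interaction of 1 and 100 genes 0.5 on the log2 scale, in either direction. It recovered 87% of the former and 11% of the latter, and 4.85% of its 103 calls were false. The simulated counts were independent draws with the fitted spread, without a knockout effect in M0. The changed genes were few of 14862, were at 5 CPM or more and changed in cKO M1 alone. The real data had 1233 calls and single libraries that moved this number, so these shares need not hold for them.

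The 34 gene lists held 754 matched genes, with 4 entries unmatched, and several lists share members. Members and lists were chosen with earlier results of these data known. Genes were named by rule: the Zc3h12 family and Tnfrsf11a; at 5 CPM or more in the highest group, and without predicted genes, the 10 largest interactions each way and the 8 smallest p per class; and up to 3 members per list. The reversed genes, the passing list members, Nfkbia, Nfkbib, Nlrp3, Gdf15, Ciita and H2-Ab1 were added after their values were seen; 1 reversed gene is not reported here. Alternatives were other scalings, filters and tools (DESeq2 1.42.0, limma-voom in limma 3.58.1) and each library left out. Promoters were matched by symbol to a RefSeq table of build GRCm38.p6.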

Additional observations from a re-analysis of the deposited data

Results flagged for a closer look

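The knockout effect differed between M1 and M0 by the interaction test for 1233 genes. Among them, 18 of the 19 genes with effects of opposite sign are given here, with interaction log2 fold changes of -1.37 for Spp1, -1.68 for Dusp5, -1.97 for Chac1, -1.21 for Rgs1, -1.10 for Ccne1, -0.93 for Hmgn2, -1.04 for Ccl9, -0.89 for Rgs2, -1.20 for Odc1 and -3.88 for 2210418O10Rik, each higher in cKO M0 and lower in cKO M1. The others, lower in cKO M0 and higher in cKO M1, had 1.15 for Rarg, 0.84 for Mefv, 0.90 for Galc, 0.70 for Birc3, 0.67 for Nod1, 0.91 for Arrdc2, 0.59 for Ahrr and 0.56 for Vsir. The value for 2210418O10Rik is uncertain in size. Its M1 counts were 19, 24 and 8 in WT and 2, 3 and 10 in cKO, which overlapped and lay partly at the floor of 3 counts.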

How the results depend on the processing

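The interaction gave 1233 calls, and 1197 with DESeq2-style size factors, 1315 with library totals alone, 1349 with a minimum count of 50, 1313 with halved counts and 1221 with limma-voom. Without a filter on low counts it gave 1972 (1186 lower), and with DESeq2 1906 (1007 lower, against 625); 1135 and 1218 of the 1233 were among these. The 55 lost genes became 254 without the filter and 165 with DESeq2, and the 19 reversed genes became 105 without the filter, 78 with DESeq2 and 34 with limma-voom. Leaving out 1 library gave 565 to 1576 calls, 259 to 784 higher and 306 to 792 lower, 483 to 1298 gained, 0 to 106 lost and 0 to 39 reversed. The gained count moved by over 1.5 times without replicate 6 of WT M0 (565), replicate 3 of cKO M0 (605), replicate 11 of WT M1 (596) or replicate 8 of cKO M1 (483). The cause of these shifts was not tested. Of the 166 named genes, those that passed the interaction test kept the sign of their interaction under each alternative that tested them. For named genes that did not pass, changes of sign were not counted. No paired analysis was possible because the replicate numbers run from 1 to 12 and no groups share a number. With 3 libraries a group and a median standard error of 0.19 for the interaction log2 fold change, many differences well above that error may go undetected. In the simulated data 11% of the interactions of 0.5 were recovered, a share that need not hold for the real libraries.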
